A study of Mus musculus with 4 samples.

Results

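The 10 genes described here, Krtdap, Sbsn, Dmkn, Calm4, Sprr1a, Sprr1b, Ly6d, Lypd3, Fabp5 and Lgals7, are genes of suprabasal and periderm differentiation of the skin. They were picked by their symbols from the 30406 genes listed at every stage, with earlier results of these data known. They were measured by scRNA-seq in mammary rudiments of wild-type female C57B6 mice (substrain B6/N in the study's methods), from E13.5 through E14.5 to E15.5 and at birth (P0). Each of these 4 stages has 1 library, with no treatment or engineered allele in any of them. Each library pools the tissue of several embryos or pups together with the mesenchyme around them, each stage was dissected in a session of its own, and the cells were sorted by EpCAM, a surface protein of epithelial cells, after CD45+, CD31+ and Ter119+ cells had been excluded. P0 tissue alone was digested with another enzyme mix and treated to lyse red cells. A stage can therefore not be told apart from its library, its dissection and its processing, and no value below has a replicate or a test.

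The epidermis is built from a basal layer that divides and suprabasal layers that leave the cycle, switch on keratins 1 and 10 and assemble a cornified envelope. In the embryo a transient outer sheet, the periderm, covers these layers until they are sealed. Krtdap, Sbsn (suprabasin) and Dmkn (dermokine) encode secreted proteins of suprabasal keratinocytes. Sprr1a and Sprr1b encode small proline-rich proteins that transglutaminases cross-link into the envelope, and Calm4 encodes a calmodulin-like calcium-binding protein of the epidermis. Ly6d and Lypd3 encode membrane-anchored proteins of the Ly6 family. Fabp5 encodes the epidermal fatty acid binding protein and Lgals7 encodes galectin-7, a lectin of stratified epithelia. Several of these genes are not named for skin alone. The study reports Krtdap and Lgals7 for luminal-like mammary cells of E15.5 and lists Ly6d as a potential early luminal marker. It also uses Lypd3 as a marker of luminal progenitors at P0. The mammary bud grows inward from the same embryonic ectoderm. In the study's methods for embryonic buds the epidermis was peeled off with needles, and the study took out remaining skin cells as contamination. Skin cells in these counts are therefore those left after peeling and not a full sample of the skin at a stage.

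A level below is the summed count of unique molecular identifiers (UMIs, each standing for 1 transcript) that a class of cells held for a gene, scaled to 1000000 UMIs of that class (CPM). The range in parentheses is its exact 95% interval, which covers counting error within 1 library only. Levels are compared between classes of cells and not between genes, since counts at transcript ends are not scaled by length. A minimum of 5000 UMIs per cell and a maximum of 6% mitochondrial ones left 235, 76, 816 and 503 cells in the order of the stages. No barcode of a kept cell was shared between libraries. A cell was called epithelial where its UMIs of Epcam, Krt8, Krt18, Krt5 and Krt14 exceeded those of Col1a1, Col1a2 and Col3a1, and these 98, 45, 532 and 230 epithelial cells were split by 5 UMIs of Krt8 and Krt18, the keratins of simple and luminal epithelium. The Krt8/18-high class held 61, 23, 446 and 228 cells, the Krt8/18-low class 37, 22, 86 and 2, and the other 137, 31, 284 and 273 cells were non-epithelial. In the Krt8/18-high cells the median depth was 18089, 27646, 24832 and 9973 UMIs, and 15, 11, 38 and 4 epithelial cells lay near the limit, with 3 to 7 UMIs of the 2 keratins. The 2 Krt8/18-low cells of P0 were too few to compare.

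Krt8/18-high cells stand for mammary cells and Krt8/18-low cells for skin in the rule that made the classes, and their markers did not fully bear this out. At E15.5, 5 of 9 measured mammary markers were at least 2-fold lower in Krt8/18-low cells, among them Ndnf at 35.2 against 81.6 CPM and Pthlh at 16.1 against 47.2 CPM, while Sostdc1 was higher there (52.8 against 12.7 CPM). At E13.5, 27 of the 61 Krt8/18-high cells had 2 or more UMIs of Gabrp, a periderm marker. These 27 cells had Krt17 at 2337 CPM and no UMI of Ndnf or Pthlh, while the other 34 had Krt17 at 101 CPM, Ndnf at 139 CPM and Pthlh at 212 CPM. Of the other periderm markers, Krt4 and Krt23 had 12 and 17 UMIs in the 27 cells and 0 in the 34. Krt6a was at 21.9 against 11.4 CPM with overlapping intervals, and Sfn was lower in the 27 cells, at 1288 against 2029. The mammary markers Tbx3 and Sostdc1 were at 13.9 against 181 and 1.99 against 300 CPM. The class called mammary by Krt8 and Krt18 thus held cells at E13.5 with several periderm markers and little or none of these 4 mammary ones. The classes are named here by their keratins alone.

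Sbsn, Dmkn and Krtdap lie side by side on chromosome 7, on the plus strand within 39.6 kb of GRCm38, and are the 3 protein-coding genes of that span. Sprr1b and Sprr1a lie within 49.1 kb of chromosome 3 on the minus strand, and Lypd3 and Lgals7 are also on chromosome 7. The last 300 bases of the Sprr1a and Sprr1b transcripts were 62.7% identical and shared 0 identical stretches of 50 bases. Sbsn overlaps Tmem147os and Calm4 overlaps Gm40655 on the same strand, and Fabp5 has 1 named copy, Fabp5l2, with which reads could be shared, so these 3 genes carry that uncertainty. Promoter windows of 300 bases, from 250 before to 50 after the transcript start, were found in RefSeq (GRCm38.p6) for 8 of the 10 genes, all but Ly6d and Fabp5. The AP-1 motif TGANTCA, read on both strands, was in the windows of 5 of these 8 genes, against 7.81% of 32851 windows of that length, and the same 5 are the adjacent trio and the Sprr1 pair. Their windows are shown because these 5 genes form both clusters and share the motif, which is in capitals, 5′ to 3′ on the strand of the gene. They span chr7:30787655-30787954 for Krtdap, chr7:30751221-30751520 for Sbsn, chr7:30763506-30763805 for Dmkn, chr3:92485832-92486131 for Sprr1a and chr3:92438730-92439029 for Sprr1b.
Krtdap: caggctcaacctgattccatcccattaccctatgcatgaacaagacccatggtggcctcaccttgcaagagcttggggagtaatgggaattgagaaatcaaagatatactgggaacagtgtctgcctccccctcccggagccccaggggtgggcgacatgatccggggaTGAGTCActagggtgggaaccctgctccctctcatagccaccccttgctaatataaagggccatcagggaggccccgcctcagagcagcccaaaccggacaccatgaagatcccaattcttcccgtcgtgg
Sbsn: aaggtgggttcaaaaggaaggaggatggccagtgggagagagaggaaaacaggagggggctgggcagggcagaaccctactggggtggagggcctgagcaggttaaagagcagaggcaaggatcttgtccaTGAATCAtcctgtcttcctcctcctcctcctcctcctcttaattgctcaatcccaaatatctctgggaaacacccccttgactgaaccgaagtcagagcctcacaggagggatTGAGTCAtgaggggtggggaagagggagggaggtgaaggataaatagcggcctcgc
Dmkn: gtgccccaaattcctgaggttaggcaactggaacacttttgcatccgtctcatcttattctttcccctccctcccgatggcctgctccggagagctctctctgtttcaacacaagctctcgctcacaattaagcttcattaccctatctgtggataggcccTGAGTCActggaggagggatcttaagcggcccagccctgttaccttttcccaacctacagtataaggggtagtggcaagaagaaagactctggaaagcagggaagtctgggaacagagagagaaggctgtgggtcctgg
Sprr1a: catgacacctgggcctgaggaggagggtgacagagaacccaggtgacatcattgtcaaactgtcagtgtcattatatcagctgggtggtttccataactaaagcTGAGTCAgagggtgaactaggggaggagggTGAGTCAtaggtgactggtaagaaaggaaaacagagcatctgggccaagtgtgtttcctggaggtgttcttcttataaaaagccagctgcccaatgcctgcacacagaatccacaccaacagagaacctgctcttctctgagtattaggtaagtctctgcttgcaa
Sprr1b: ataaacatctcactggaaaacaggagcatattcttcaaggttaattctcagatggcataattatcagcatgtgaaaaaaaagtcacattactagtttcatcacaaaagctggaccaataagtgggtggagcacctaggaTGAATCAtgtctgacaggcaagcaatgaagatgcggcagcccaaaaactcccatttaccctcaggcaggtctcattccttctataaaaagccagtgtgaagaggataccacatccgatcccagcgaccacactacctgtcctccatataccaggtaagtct
The motif began 81 bases before the start of Krtdap, 119 and 6 bases before that of Sbsn, 89 before Dmkn, 146 and 116 before Sprr1a and 111 before Sprr1b. Dmkn has 3 windows in the table, of which the first is shown. The TATA motif TATAAA was in the windows of Krtdap, Sprr1a and Sprr1b (13.6% of all windows), starting 30, 43 and 30 bases before the start. TTGCNNAA, a C/EBP motif, was found for Sbsn, Dmkn and Lypd3 (10.8% of windows), GGGTG, a KLF motif, for 6 of the 8 genes (57.5%), GGAAGT, an ETS motif, for Dmkn and Calm4 (23.8%), and AACNGGTT, a motif of the GRHL factors, for 0 of the 8 (2.09%). A match describes letters in a window and not a site that is used.

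In Krt8/18-high cells, 7 of the 10 genes were at their highest level at E15.5, and Sbsn, Ly6d and Lypd3 at P0. Against E13.5, 9 of the 10 genes were at least 2-fold higher at E15.5, where 14.4% of 11652 genes with at least 20 UMIs were, and 0 were 2-fold lower, against 15.0% of all genes. Against E14.5, 7 were higher (6.81% of all genes) and 0 lower (19.8%). Against P0, 6 were higher (19.3%) and 2 lower (14.9%). The median log2 ratio of the 10 genes was 3.43 against E13.5, 3.21 against E14.5 and 1.43 against P0, beside medians of -0.04, -0.29 and 0.14 over all genes measured.

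Of the secreted trio, Krtdap was at 56.4 CPM (43.8 to 71.5) in Krt8/18-high cells of E13.5 and 48.9 (33.9 to 68.3) in those of E14.5, against 660 (646 to 675) a day later and 6.56 (3.82 to 10.5) at P0. The E15.5 level was 11.7-fold that of E13.5 (9.22 to 15.1) and 101-fold that of P0 (62.8 to 173). Dmkn was at 7.47 CPM, 27.3, 524 (512 to 537) and 249 (231 to 269), so it remained well above its early level at P0, where 61.4% of the cells had a UMI against 6.23% of non-epithelial cells. Sbsn was at 9.12 CPM, 17.3, 24.6 (21.9 to 27.5) and 70.3 (60.4 to 81.2), and was 2.86-fold higher at P0 than at E15.5 (2.37 to 3.45). At no stage did the Sbsn level of Krt8/18-high cells lie more than 2-fold above that of non-epithelial cells, which had 9.74, 14.3, 13.1 and 55.8 CPM. The neighbours in position thus did not share 1 course over the stages.

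Among the envelope genes, Sprr1a was at 13.3 CPM (7.59 to 21.6) at E13.5 and 5.75 (1.57 to 14.7) at E14.5, and then at 132 (126 to 139) in E15.5 cells and 120 (107 to 135) in P0 cells. The intervals of E15.5 and P0 overlapped, but at P0 39 of 228 cells held all of its UMIs and the 23 cells with most of them held 94.9%. Sprr1b was near zero outside E15.5, with 333 UMIs there (27.2 CPM, 24.3 to 30.3) against 1, 0 and 2 at the other stages in their order. Calm4 had 52 UMIs at E15.5 (4.25 CPM, 3.17 to 5.57) against 1, 0 and 0. Its ratio of E15.5 to E13.5 was 5.12, with an interval from 0.879 to 206 that holds 1. Both genes were thus close to the limit of detection in Krt8/18-high cells at every stage but E15.5.

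Ly6d and Lypd3, of the same protein family, had their own courses. Ly6d had 1 and 0 UMIs in Krt8/18-high cells of the 2 earliest stages, was at 101 CPM (95.3 to 107) at E15.5 and at 972 (934 to 1011) at P0. The P0 level was 9.64-fold that of E15.5 (9.0 to 10.3), and 68.0% of P0 cells had a UMI against 17.3% at E15.5, or 59.2% against 8.52% with every cell thinned at random to 5000 UMIs. Among P0 non-epithelial cells the share was 6.59%, and 1 of those cells held 57 of the 87 UMIs. Lypd3 was at 56.4 CPM (43.8 to 71.5), 2.88 (0.348 to 10.4), 129 (123 to 136) and 208 (190 to 226), so E13.5 stood above E14.5 and P0 above E15.5 by 1.61-fold (1.46 to 1.78). At E13.5 its level was 119 CPM (91.2 to 154) in the 27 Krt8/18-high cells with Gabrp and 11.4 (4.91 to 22.4) in the other 34. Without those 27 cells the log2 ratio of E15.5 to E13.5 was 3.50 in place of 1.19 for Lypd3 and 1.06 in place of 0.42 for Fabp5.

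Lgals7 was at 82.1 CPM at E13.5 and 391 (346 to 441) at E14.5, at 1560 (1538 to 1582) in E15.5 cells and 452 (427 to 479) in P0 cells, and 99.6% of E15.5 Krt8/18-high cells had a UMI. Non-epithelial cells had 6.09, 8.35, 111 and 10.8 CPM. Fabp5 differed least between the 3 embryonic stages, at 316 CPM (285 to 349), 325 (284 to 370) and 422 (410 to 433), and was at 108 (95.4 to 121) at P0. It was also found in non-epithelial cells, at 224, 279, 136 and 131 CPM, and at E14.5 and P0 the intervals of the 2 classes overlapped.

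**Figure D1:**
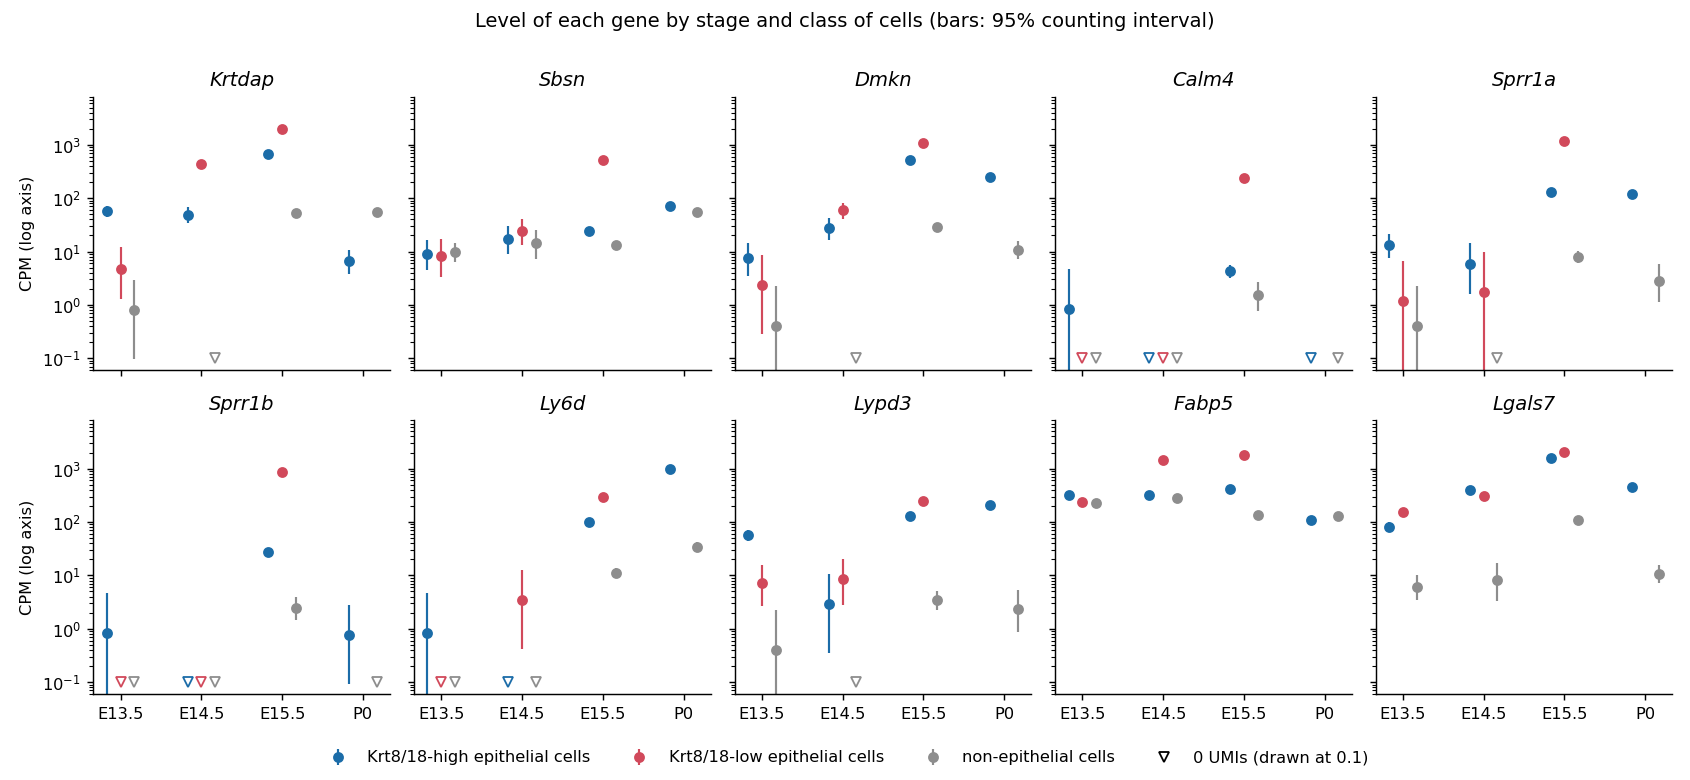
Level of each of the 10 genes in CPM (log axis) at the 4 stages in Krt8/18-high epithelial cells (blue), Krt8/18-low epithelial cells (red, not drawn at P0, where there were 2) and non-epithelial cells (grey). Bars are exact 95% Poisson intervals and open triangles mark classes with 0 UMIs. For 9 of the 10 genes the highest point is that of E15.5 Krt8/18-low cells, while Ly6d is highest at 972 CPM in P0 Krt8/18-high cells.

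Krt8/18-low cells did not differ from Krt8/18-high cells in the same way at every stage. At E13.5, 4 of the 10 genes had at least 20 UMIs in the 2 classes together, and 2 of them, Krtdap and Lypd3, were at least 2-fold lower in Krt8/18-low cells (10.6% of 7826 genes were), while 0 were higher (3.82%). Krtdap was at 4.78 CPM (1.30 to 12.2) in Krt8/18-low and 56.4 in Krt8/18-high cells, an 11.8-fold difference (4.40 to 44.5), and 1 of the Krt8/18-high cells held 33 of the 68 UMIs. Lypd3 was at 7.18 CPM (2.63 to 15.6) against 56.4, a 7.86-fold difference (3.43 to 22.2). Fabp5 was at 234 against 316 CPM, and Lgals7 was the other way round, at 155 (130 to 185) against 82.1 CPM. In the same comparison the periderm markers Krt17, Gabrp and Krt6a were lower in Krt8/18-low cells, by 7.08-fold, 9.18-fold and 13.2-fold, and so were 10 of 15 measured genes of epidermal differentiation. Against the 34 Krt8/18-high cells without Gabrp alone, Krtdap was 12.5-fold lower in Krt8/18-low cells (4.53 to 47.9), but 1 of those 34 cells held 33 of their 42 Krtdap UMIs. The difference in Lypd3 fell to 1.59-fold (0.482 to 5.54), with an interval that holds 1. Fabp5 was then at 234 against 202 CPM, a ratio of 1.16 (0.931 to 1.45), and Lgals7 at 155 against 134, also 1.16 (0.885 to 1.53). Stress genes also differed, 4 of 8 being 2-fold lower in Krt8/18-low cells (Hspa1a at 64.6 against 305 CPM), and both mesenchyme markers with enough UMIs were higher there (Col3a1 at 25.1 against 8.30 CPM), and the part of these genes was not tested.

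At E14.5, 5 of the genes could be compared and 3 were higher in Krt8/18-low cells (5.52% of 7102 genes), with 0 lower (10.9%). Krtdap was at 429 CPM (377 to 486) against 48.9, Fabp5 at 1435 (1339 to 1536) against 325 and Dmkn at 58.8 (40.7 to 82.2) against 27.3. A single cell of 66578 UMIs held 194 of the 248 Krtdap UMIs, 511 of the 829 Fabp5 UMIs and 33 of the 34 Dmkn UMIs of this class. The same cell had 73 UMIs of Krt1 and 121 of Krt10. The 2 cells with most Krtdap UMIs held 99.2% of those of the class. By the share of cells with a UMI, Krtdap and Dmkn went the other way. Krtdap was found in 18.2% of Krt8/18-low and 39.1% of Krt8/18-high cells, Dmkn in 9.09% and 30.4% and Fabp5 in 90.9% and 87.0%. Without the cell with the most UMIs of the 10 genes in each class, Dmkn was lower in Krt8/18-low cells, with a log2 ratio of -3.86. Lgals7 was at 313 CPM (269 to 362) against 391, the lower level in Krt8/18-low cells this time. In the same comparison 4 of 5 proliferation genes were higher in Krt8/18-low cells (Top2a at 223 against 30.2 CPM) and 5 of 6 mammary markers lower (Ndnf at 118 against 303 CPM).

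At E15.5 all 10 genes could be compared, and 8 were at least 2-fold higher in the 86 Krt8/18-low cells than in the 446 Krt8/18-high cells, where 4.24% of 11759 genes were. None of the 10 was 2-fold lower, as 1587 of the 11759 genes were, and 17.7% of all genes differed by 2-fold either way. The median log2 ratio was 1.86, beside -0.34 over all genes. Calm4 and Sprr1b, of the envelope genes, had the largest ratios. Calm4 was at 244 CPM (223 to 266) against 4.25, a ratio of 57.5 (43.1 to 78.0). Sprr1b was at 882 CPM (841 to 923) against 27.2, a ratio of 32.4 (28.8 to 36.6), and Sprr1a at 1181 (1134 to 1229) against 132, a ratio of 8.92 (8.37 to 9.5).

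Of the secreted trio, Sbsn had a ratio of 20.8 (18.2 to 23.7), at 510 CPM against 24.6, while Krtdap had one of 3.03 (2.92 to 3.15), at 2000 against 660, and Dmkn one of 2.06 (1.96 to 2.16), at 1079 against 524. Fabp5 was at 1834 against 422 CPM, a ratio of 4.35 (4.17 to 4.54), and Ly6d at 290 against 101, a ratio of 2.87 (2.60 to 3.17). Lypd3, at 244 against 129 CPM, and Lgals7, at 2092 against 1560, stayed under 2-fold with ratios of 1.89 (1.70 to 2.09) and 1.34 (1.30 to 1.39).

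The shares of cells with a UMI did not follow these levels for every gene. Krtdap was found in 88.4% of Krt8/18-low and 83.4% of Krt8/18-high cells of E15.5, Dmkn in 80.2% and 84.5%, and Sprr1a in 45.3% and 47.3%, beside 18.3%, 15.1% and 9.86% of non-epithelial cells, at median depths of 23682, 24832 and 24350 UMIs. Thinned to 5000 UMIs per cell, the shares were 69.8% and 52.7% for Krtdap, 57.0% and 59.9% for Dmkn and 32.6% and 22.0% for Sprr1a. Calm4 was found in 23.3% (14.8 to 33.6) of Krt8/18-low and 7.17% (4.96 to 9.98) of Krt8/18-high cells and in 1.76% of non-epithelial ones. Of the 4090 Krtdap UMIs of the Krt8/18-low class, 58.5% came from the 9 cells with most of them, and for Calm4 95% of 499 did. Non-epithelial cells included 1 cell of 72390 UMIs, with 596 UMIs of the epithelial genes and 691 of the collagens, that held 265 of their 378 Krtdap UMIs.

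The Krt8/18-low cells of E15.5 fell apart by the suprabasal keratins. Of the 86 cells, 23 had 5 or more UMIs of Krt1 and Krt10, up to 624, and 0 cells had 3 to 7. These 23 cells, with a median depth of 32041 UMIs against 21288 in the other 63, held between 72.6% (Lgals7) and 99.4% (Sprr1b) of the class's UMIs of each gene. The 2 keratins and the limit were chosen after their values had been seen. Krtdap was at 5586 CPM (5407 to 5770) in the 23 cells and 298 (270 to 328) in the 63, a ratio of 18.8 (16.9 to 20.8), and Dmkn at 2953 and 190, a ratio of 15.6. Sbsn was at 1553 CPM (1459 to 1651) against 15.1 (9.37 to 23.1), Calm4 at 747 against 5.05 and Sprr1b at 2722 against 7.93, ratios of 103, 148 and 343.

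In the same 23 cells Ly6d was at 893 CPM (823 to 969) against 2.88 (0.786 to 7.39), Sprr1a at 3502 against 79.3 and Fabp5 at 4928 against 366. Lypd3, at 574 against 86.5 CPM, and Lgals7, at 4716 against 846, differed least, by 6.64-fold (5.39 to 8.22) and 5.57-fold (5.21 to 5.97). The 6 basal markers did not move as one. Col17a1, a collagen that anchors basal cells, was at 28.9 CPM in the 23 cells and 340 in the 63, the integrin Itgb4 at 16.7 and 70.0, and the basal keratins Krt15 at 261 and 713 and Krt14 at 1401 and 2299. Trp63, the transcription factor of the basal layer, was at 89.6 and 119 CPM with overlapping intervals, and Krt5 was higher in the 23 cells, at 1343 against 922. Galectin-3 (Lgals3) was at 857 against 3.61 CPM.

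With cells of 5 or more Krt1 and Krt10 UMIs left out of both classes, 431 Krt8/18-high and 63 Krt8/18-low cells remained, and the direction turned for all but Calm4. This limit did not treat the classes alike. It took out 23 of the 29 Krt8/18-low cells with 5 or more of the genes detected, but 10 of the 118 such Krt8/18-high cells. A fall of the Krt8/18-low levels thus follows from the choice of cells. None of the 10 genes was then 2-fold higher in Krt8/18-low cells by these counts (3.78% of 11565 genes were), and 3 were 2-fold lower there (11.5%). Ly6d was at 64.2 CPM (59.7 to 69.0) in Krt8/18-high and 2.88 in Krt8/18-low cells, a 22.3-fold difference (8.66 to 81.9). Dmkn was at 480 against 190 CPM, a ratio of 2.53 (2.23 to 2.87), and Sprr1b at 19.1 against 7.93, a ratio of 2.4 (1.32 to 4.88). Krtdap followed at 579 against 298 CPM, a ratio of 1.94 (1.76 to 2.15), and Lgals7 at 1502 against 846, one of 1.78 (1.67 to 1.88). Sprr1a and Lypd3 had ratios of 1.40 and 1.39, and for Sbsn, Calm4 and Fabp5 the interval held 1, with 1.41 (0.903 to 2.32), 0.803 (0.361 to 2.10) and 1.04 (0.946 to 1.14).

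**Figure D2:**
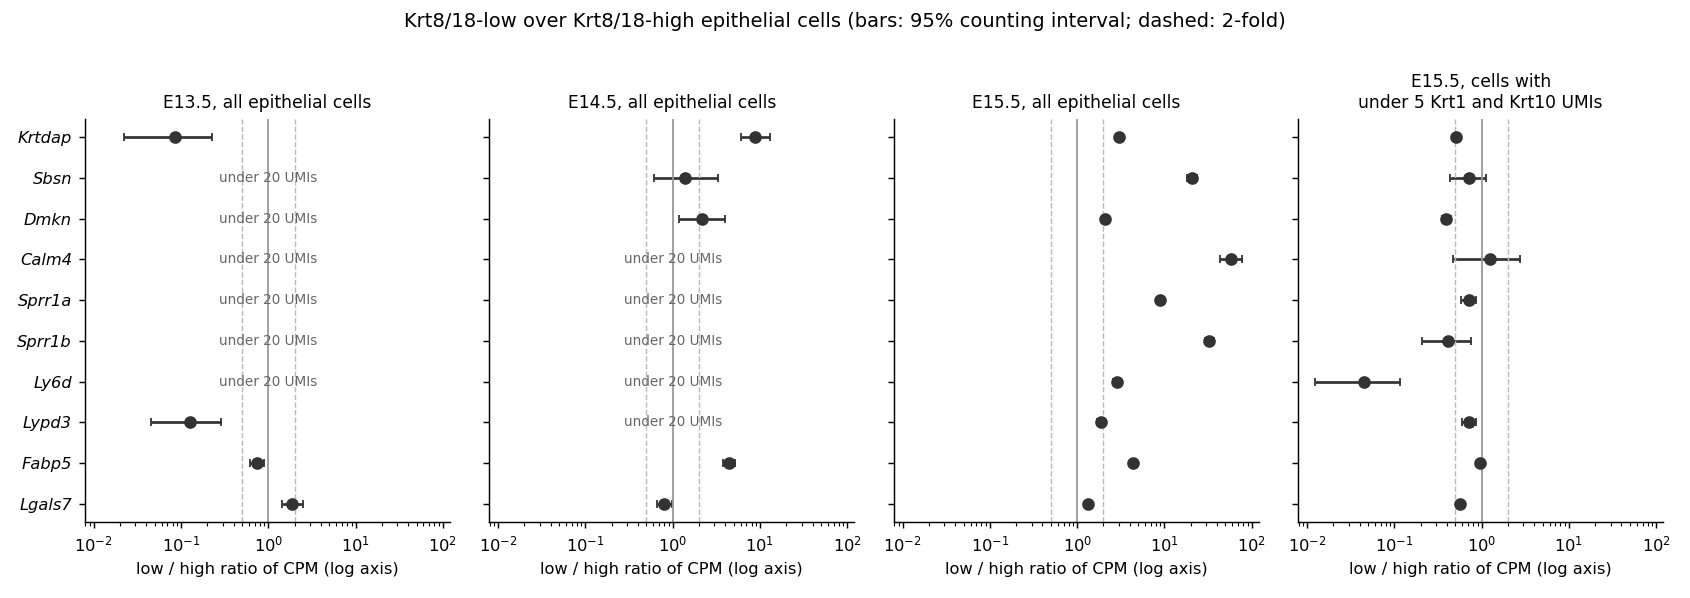
Ratio of Krt8/18-low to Krt8/18-high epithelial cells for each gene (log axis) at every embryonic stage, and at E15.5 with cells of 5 or more Krt1 and Krt10 UMIs left out of both classes. Points are ratios of CPM, bars exact conditional binomial 95% intervals and dashed lines 2-fold. At E15.5 all 10 points lie right of 1, from 1.34 for Lgals7 to 57.5 for Calm4, and in the last panel 9 of 10 lie left of it.

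Other genes of epidermal differentiation set these values in context. At E15.5, 23 of the 27 listed had enough UMIs, of which 14 were at least 2-fold higher in Krt8/18-low cells and 1 lower, with a median log2 ratio of 2.10. All 6 measured suprabasal markers were higher, among them Krt1 at 759 against 5.71 CPM, Krt10 at 1121 against 39.0 and Krt77 at 183 against 0.898, and loricrin (Lor), an envelope protein, at 30.8 against 5.06. Casp14, a caspase of cornification, had a ratio of 74.9 (18.7 to 652) and Abca12, a lipid transporter of lamellar granules, one of 65.3 (34.2 to 140). Of the transcription factors, Klf4 was at 346 against 115 CPM, while Ovol1 (305 against 319), Grhl3 (134 against 184) and Zfp750 (57.2 against 64.9) stayed within 2-fold. Sfn, or stratifin, was at 2784 against 2427 CPM, and Krt17 was lower in Krt8/18-low cells, at 338 against 682.

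Of the 5 measured periderm markers, 2 were higher in Krt8/18-low cells (Krt6a, 4.72-fold, and Krt23 at 45.5 against 1.22) and 2 lower (Krt17 and Krt4). Of 978 Krt4 UMIs in Krt8/18-high cells, 976 came from 2 cells, in which Krtdap was at 1868 CPM and Sprr1a at 2051, with 0 UMIs of Lgals7. Of the 6 basal markers 1, Col17a1, was higher (240 against 89.6 CPM). The 2 cells with Krt4 also held 1902 Krt15 UMIs. In the other 444 Krt8/18-high cells Krt15 was at 184 CPM, beside 261 in the 23 and 713 in the 63 Krt8/18-low cells divided by Krt1 and Krt10. Of the study's markers of E15.5 luminal-like cells, picked on these samples, Anxa1, Plet1 and Lgals3 were higher in Krt8/18-low cells, at 883 against 306, 475 against 177 and 278 against 67.0 CPM. Grhl3, which the study also names for those cells, was not higher. With cells of 5 or more Krt1 and Krt10 UMIs left out of both classes, Anxa1 was at 464 against 296 CPM and Plet1 at 194 against 160. Lgals3 was then lower in Krt8/18-low cells, at 3.61 against 57.6 CPM. None of the 8 stress genes or of the 5 proliferation genes differed by 2-fold, with Jun at 962 against 1261 CPM and Top2a at 57.7 against 108. Of 5 measured mesenchyme markers 2 were lower (Col1a1 at 14.2 against 29.4 CPM and Pdgfra with 1 against 19 UMIs). Of the 3 endothelial markers and of the 4 of melanocytes and glia, 1 each had enough UMIs and did not differ by 2-fold, and none of the 3 immune or 4 red cell markers had enough.

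Across the 532 epithelial cells of E15.5, the 10 genes varied together. Spearman's rho between the CPM of 2 genes was above 0 for all 45 pairs, with a median of 0.33, from 0.20 for Sprr1b with Fabp5 to 0.61 for Krtdap with Dmkn. These values are descriptions over cells that share 1 library and differ in depth. With every cell thinned to 5000 UMIs the median was 0.29. Beside these values, the median rho of the 10 genes was 0.02 with Krt8, 0.07 with Krt5 and -0.06 with Krt14, but 0.44 with Lgals3 and 0.35 with Anxa1. Dmkn and Krtdap had the highest median rho with the other 9 genes, 0.42 and 0.39, and Sbsn and Calm4 the lowest, 0.29 each.

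The 2 classes differed in how tightly the genes went together. The Krt8/18-low class pools the 23 cells with 5 or more Krt1 and Krt10 UMIs and the 63 others, which differed in the level of every gene. That difference enters its rho, and rho within either group was not computed. In the 446 Krt8/18-high cells the median rho was 0.25, from 0.05 for Sbsn with Sprr1b to 0.58 for Krtdap with Dmkn, and 4 of the 45 pairs reached 0.4. In the 86 Krt8/18-low cells the median was 0.58, from 0.30 for Lypd3 with Lgals7 to 0.81 for Sbsn with Sprr1b, and 44 pairs reached 0.4. With every cell thinned to 5000 UMIs the medians were 0.17 and 0.53. In thinned Krt8/18-high cells 42 of the 45 pairs were above 0, and the lowest was -0.04 for Sbsn with Calm4. Sbsn had a rho of 0.72 with both of its neighbours in Krt8/18-low cells and of 0.28 with both in Krt8/18-high cells, and Sprr1a with Sprr1b 0.74 and 0.33.

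The median rho of the 10 genes with Krt1 was 0.65 in Krt8/18-low and 0.05 in Krt8/18-high cells, and with Krt10 0.63 and 0.11. With Lgals3 it was 0.70 and 0.38, with Anxa1, an annexin, 0.56 and 0.31, and with Plet1 0.58 and 0.28. With Krt8 it was -0.22 and 0.15, and with Krt5 -0.10 and 0.13. With Ndnf and Pthlh, mammary genes that the study names for basal cells, it was below 0 in both classes. It was -0.20 and -0.13 in Krt8/18-low and -0.16 and -0.18 in Krt8/18-high cells. The 446 Krt8/18-high cells had 70 Krt1 UMIs in all. In the 15 of these cells with 5 or more Krt1 and Krt10 UMIs, Krtdap was 3.64-fold, Sprr1a 4.58-fold, Sprr1b 9.05-fold and Ly6d 11.7-fold higher than in the other 431, at median depths of 38502 and 24681 UMIs.

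**Figure D3:**
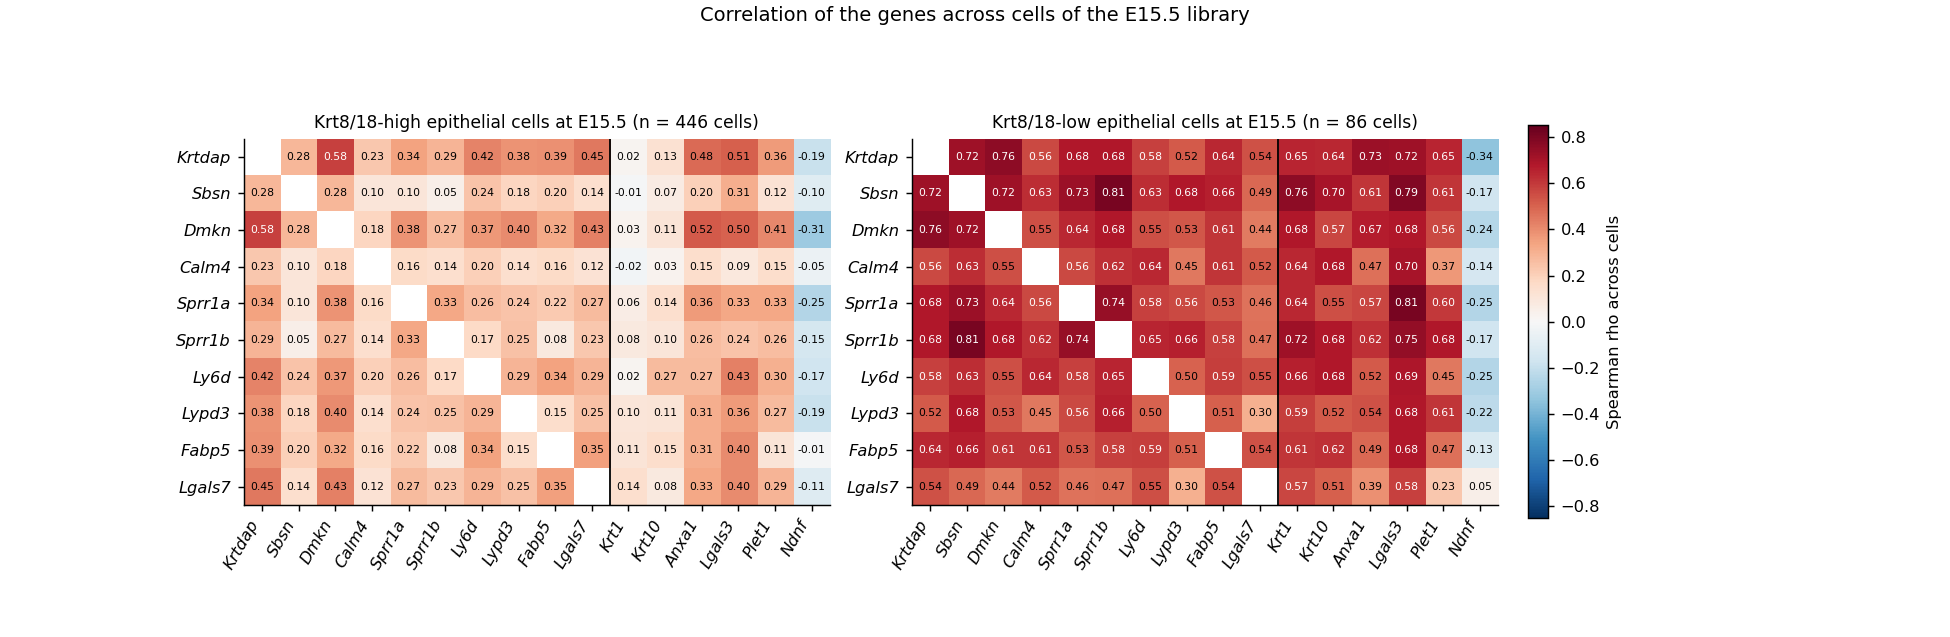
Spearman's rho across E15.5 cells between each of the 10 genes (rows) and the others, Krt1, Krt10, Anxa1, Lgals3, Plet1 and Ndnf (columns, the latter right of the line), in 446 Krt8/18-high (left) and 86 Krt8/18-low cells (right). Red marks values above 0 and blue below. The Krt1 column is near 0 on the left (median 0.05) and as strong as the genes themselves on the right (median 0.65).

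The number of the 10 genes detected in a cell, after thinning to 5000 UMIs, differed between the stages. At E13.5, 0 of 61 Krt8/18-high and 0 of 37 Krt8/18-low cells had 5 or more. The 0 of 61 allows a share of up to 4.92% by a limit of 3 cells, or 5.87% by the exact binomial interval. At E14.5, 0 of 23 and 1 of 22 cells had 5 or more. At E15.5, 118 of 446 Krt8/18-high cells (26.5%, 22.4 to 30.8) and 29 of 86 Krt8/18-low cells (33.7%, 23.9 to 44.7) had 5 or more, beside 2 of 284 non-epithelial cells. At P0, 22 of 228 Krt8/18-high cells did (9.65%, 6.15 to 14.2) and 1 of 273 non-epithelial cells. The intervals of the 2 epithelial classes of E15.5 overlapped, and without thinning their shares were in the other order, 72.0% and 65.1%.

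The spread within the classes was unlike. In Krt8/18-high cells of E15.5 the counts formed 1 hump around 3 genes, with 9 of 446 cells at 8 or more. In Krt8/18-low cells 30 of 86 cells had 3 genes, 4, 2 and 3 cells had 5, 6 and 7, and 20 cells had 8 or more. All 23 Krt8/18-low cells with 5 or more Krt1 and Krt10 UMIs were among the 29 with 5 or more of the genes. In Krt8/18-high cells 15 cells reached that keratin limit and 52 had 3 to 7 UMIs of the 2 keratins, and of the 118 cells with 5 or more genes 10 were among those 15.

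**Figure D4:**
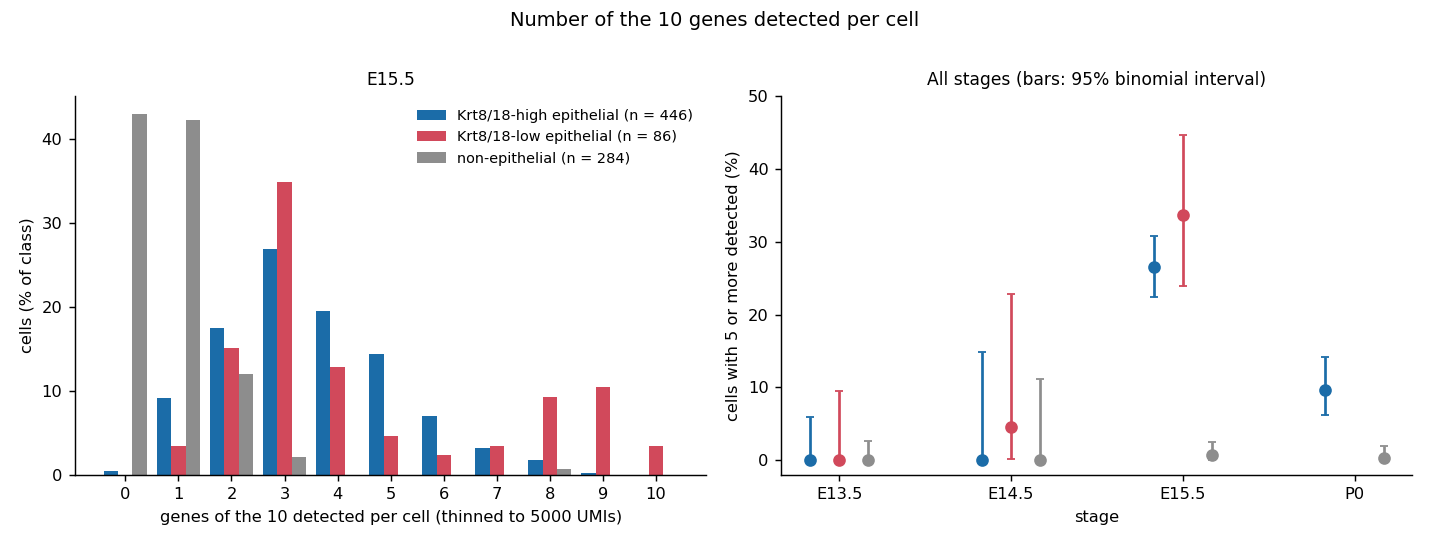
Left, percent of E15.5 cells of each class by the number of the 10 genes detected after thinning to 5000 UMIs (bars). Right, percent of cells with 5 or more detected at each stage, with exact 95% binomial intervals (P0 Krt8/18-low cells, 2 in all, are not drawn). The red bars have a second rise at 8 to 10 genes, held by 20 of 86 cells, and the blue share is highest at E15.5, at 26.5%.

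Other genes were compared between Krt8/18-high cells of E15.5 with 5 to 10, 2 to 4 and 0 or 1 of the genes detected (118, 285 and 43 cells, with median depths of 27602, 24313 and 23652 UMIs). These are ranges of 1 count and not cell types. The study named Anxa1, Lgals3 and Plet1, like Krtdap, Ly6d and Lgals7, for luminal-like cells of this same library, so the 2 sets are not independent. Anxa1 was at 636, 191 and 44.9 CPM in that order, a ratio of 14.2 between the outer ranges (10.7 to 19.2), Lgals3 at 183, 22.4 and 2.75 (66.6, 22.7 to 324) and Plet1 at 334, 114 and 105 (3.19, 2.63 to 3.90). Of 17 measured genes of epidermal differentiation 7 were at least 2-fold higher with 5 to 10 genes and 0 lower. Without the 2 cells that held the Krt4 UMIs, 6 of 15 were higher and 0 lower. The share of all genes that differed by 2-fold between these ranges was not computed, so these counts have no background beside them. Krt10 was at 65.7 against 22.9 CPM, Krt17 at 1034 against 499, Notch3, a receptor of the Notch pathway, at 59.8 against 25.7 and Zfp750 at 95.8 against 42.2. Krt1 had 32 UMIs against 1, so even in the upper range it was at 9.07 CPM, while it was at 2346 in the 23 Krt8/18-low cells above.

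Mammary genes went the other way. Ndnf was at 37.1 CPM with 5 to 10 genes and 94.4 with 0 or 1 (2.54-fold, 1.95 to 3.32), Pthlh, the parathyroid hormone-like hormone of the bud, at 17.3 and 55.9 (3.24-fold, 2.23 to 4.69), Sostdc1, a secreted Wnt and BMP antagonist, at 5.67 and 25.7 (4.53-fold) and Wnt10b at 21.2 and 52.3 (2.46-fold). These were 4 of 7 measured mammary markers, and Aldh1a3, with 34 against 2 UMIs, was the 1 higher. Cxcl14, a chemokine that the study also names for basal cells, was at 104 and 373 CPM. Of the 6 markers of basal epidermis, Col17a1 was the 1 that was 2-fold lower, at 41.6 and 120 CPM, and Krt15 the 1 that was higher. Krt5 was at 1000 and 657 CPM, Trp63 at 74.2 and 66.0, Krt14 at 2461 and 2616 and Itgb4 at 31.4 and 43.1, all within 2-fold. Krt8 was at 1438 and 826 CPM as a summed level, and how near single cells lay to the keratin limit of the class was not tested. Of the 8 stress genes 1 was 2-fold lower, Atf3 at 539 against 1429 CPM, and of the 5 proliferation genes Top2a and Cdk1 were higher, by 2.04-fold and 2.03-fold. Of 3 mesenchyme markers Col1a1 (47.3 against 22.0 CPM) and Col1a2 (32.0 against 15.6 CPM) were higher with 5 to 10 genes, and their part, like that of depth, was not tested. Krt15 was 2.16-fold higher, and 0.851-fold without the 2 cells that held the Krt4 UMIs, and Krt6a 18-fold higher and 7.39-fold without them.

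**Figure D5:**
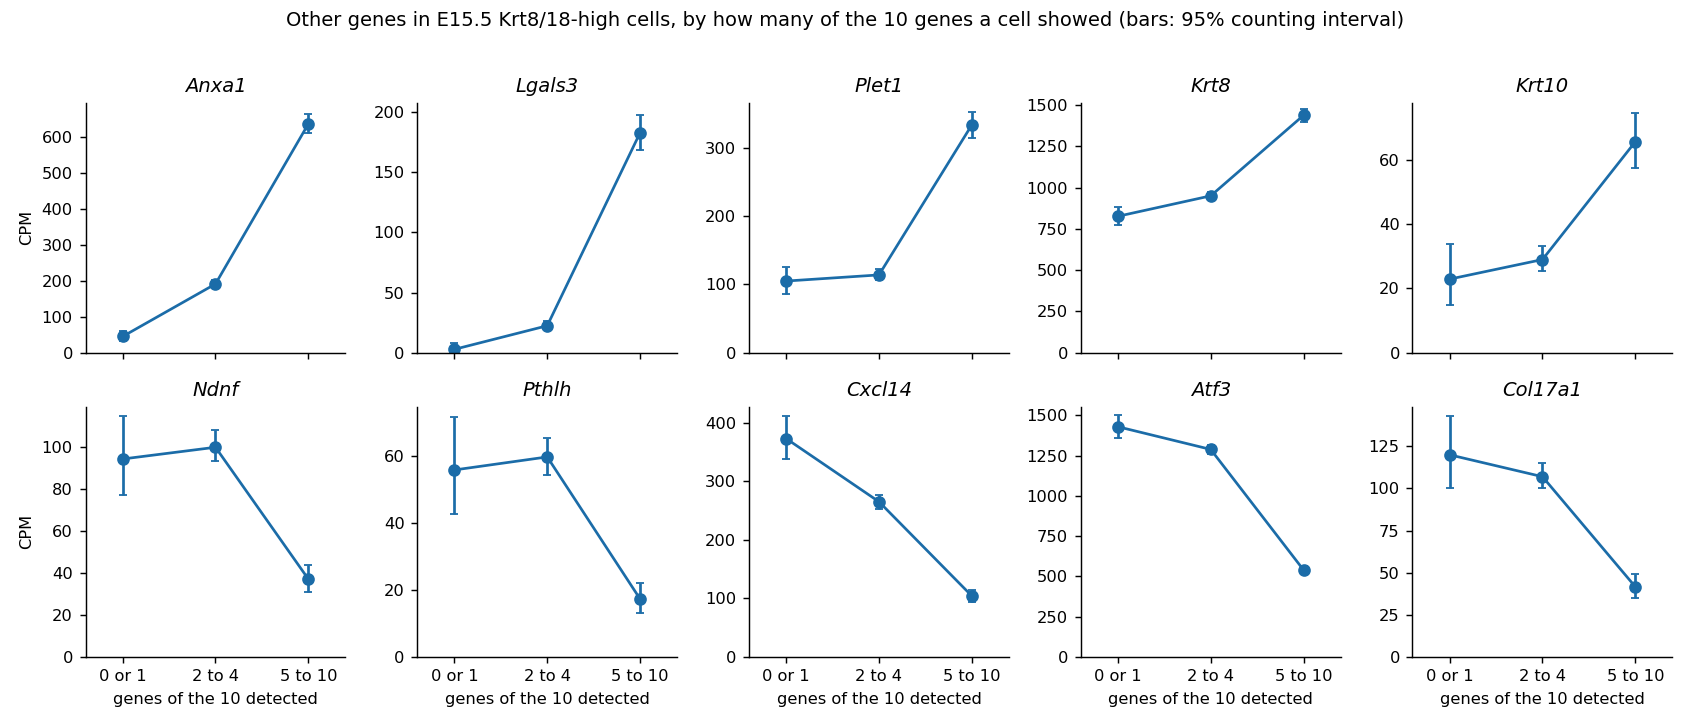
Level in CPM of 10 other genes in E15.5 Krt8/18-high cells with 0 or 1, 2 to 4 and 5 to 10 of the described genes detected (43, 285 and 118 cells), with exact 95% Poisson intervals and axes from 0. Anxa1, Lgals3, Plet1, Krt8 and Krt10 are highest on the right, and Ndnf, Pthlh, Cxcl14, Atf3 and Col17a1 are lowest there. Of the markers of basal epidermis only Col17a1 is drawn, and the others did not follow it.

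Among 5036 genes found in at least 10% of the thinned E15.5 epithelial cells, those whose UMIs went most with the summed UMIs of the 10 genes included Lgals3 (rho 0.47), S100a11 and S100a14 (0.46 each), S100a16 (0.43), Anxa1 (0.41), the desmosomal cadherin Dsc3 (0.39), Prdx5 (0.38) and Nipal1 and Anxa2 (0.37 each). Lgals3, Anxa1 and Dsc3 are named by the study for luminal-like cells of this library, as are Krtdap, Ly6d and Lgals7. The lowest were Atf3 (-0.45), Calm2 (-0.42), Hsph1 (-0.38), the basal integrin Itgb1 (-0.36) and Nfib (-0.34). Within the 446 Krt8/18-high cells S100a14, S100a11, S100a16, Anxa1 and Dsc3 came first, at 0.42 to 0.38, and Atf3 last at -0.45. Within the 86 Krt8/18-low cells Krt1 (0.69), Lgals3 (0.68), Dbi (0.66), Ndufa4l2 (0.65) and Krt10 (0.64) came first and Nfib (-0.68) last.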

How the data were processed

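The authors deposited UMI counts per gene and cell barcode, 1 table per stage, not normalized, made with Cell Ranger on mm10 (10x 3′ v3.1 libraries). The submitters' processing notes name version 6.0.0 throughout, and the header of the E15.5 file gives 3.1.0. That file lists 31053 genes and the others 32285. Genes were matched by Ensembl identifier. The tables hold 5705131, 3577372, 28461610 and 7099444 UMIs in the order of the stages. Doublets were excluded at the sort, and no doublet caller was run here. The 10 genes and all gene lists were chosen with earlier results of these data known. With 1 library per stage no test was made: intervals are exact Poisson (levels), conditional binomial (ratios) and binomial (shares) at 95% and cover counting error only. A class of 0 UMIs was set to 3 in ratios. Ratios use genes with at least 20 UMIs in both classes together, with 2-fold as the limit. That minimum was not applied again to single ratios recomputed after cells were left out or under an alternative. From each list, the 4 genes with most UMIs and up to 4 with the largest ratio could be named. Klf4, Grhl3, Zfp750, Notch3, Cxcl14, Krt8 and others, and the divisions of cells by Gabrp, Krt4 or Krt1 and Krt10, were chosen after their values were seen. Alternatives were another UMI minimum (3000), mitochondrial maximum (10%), class limit (10 UMIs or 200 CPM), thinning, collagen limit, fold limit and mean over cells. Coordinates are of GENCODE M21 on GRCm38. Python 3.11.15, numpy 2.4.6, scipy 1.17.1 and pandas 2.3.3 were used, and the ratios were tested on simulated data. Some genes that the naming rule covers are not reported here.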

Additional observations from a re-analysis of the deposited data

Results flagged for a closer look

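For 4 genes the ratio of Krt8/18-low to Krt8/18-high cells lay on opposite sides of 1 at different stages, each time with an interval that left out 1. The difference between stages was not tested. Krtdap had a ratio of 0.0848 (0.0225 to 0.227) at E13.5 against 8.78 (6.12 to 13) at E14.5 and 3.03 (2.92 to 3.15) at E15.5. At E14.5, 1 Krt8/18-low cell held 194 of the 248 Krtdap and 511 of the 829 Fabp5 UMIs of its class. Lypd3 had 0.127 (0.0451 to 0.291) at E13.5 against 1.89 (1.70 to 2.09) at E15.5. Fabp5 had 0.742 (0.621 to 0.883) at E13.5 against 4.41 (3.81 to 5.14) and 4.35 (4.17 to 4.54) at the later stages. Without the 27 Krt8/18-high cells with Gabrp, the E13.5 ratio was 0.631 (0.180 to 2.07) for Lypd3 and 1.16 (0.931 to 1.45) for Fabp5, both with an interval that holds 1, and 0.0801 (0.0209 to 0.221) for Krtdap. Of the 42 Krtdap UMIs in the other 34 Krt8/18-high cells, 1 cell held 33. Without cells of 5 or more Krt1 and Krt10 UMIs, the E15.5 log2 ratio was -0.96 for Krtdap, -0.48 for Lypd3, -0.05 for Fabp5 and -0.83 for Lgals7, so none of these 4 genes was then higher in Krt8/18-low cells at E15.5. That limit took out most Krt8/18-low but few Krt8/18-high cells with many of the genes detected, so a fall of these ratios follows from the choice. Lgals7 had 0.801 (0.660 to 0.970) at E14.5 against 1.89 (1.45 to 2.48) at E13.5 and 1.34 (1.30 to 1.39) at E15.5. Without the 27 Krt8/18-high cells with Gabrp, its E13.5 ratio was 1.16 (0.885 to 1.53), with an interval that holds 1.

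Barcodes that the UMI and mitochondrial filters removed, which no comparison used, also held UMIs of the 10 genes. Their summed level was 244 CPM (217 to 274) at E13.5, 643 (602 to 685) at E14.5, 4190 (4142 to 4239) at E15.5 and 729 (692 to 767) at P0, beside 355, 1012, 3142 and 1269 CPM in the kept cells. At E15.5 the removed barcodes were above the kept cells.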

How the results depend on the processing

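No paired analysis was possible because each stage has 1 library and no replicate numbers. Of 138 counts over the 10 genes, correlations and shares recomputed under the alternatives, 122 kept their value within the set margins and 16 moved. Of 465 log2 ratios of single genes, 334 kept their value, 119 moved and 12 were reversed. A turn of sign was found for 22 of the 465, and the 12 reversed are those from a ratio of at least 2-fold. Of 630 levels of single genes in CPM, 166 moved, and of 70 shares of cells with a single gene, 48 moved. Dmkn at E14.5 (log2 ratio 1.11 of Krt8/18-low to -high) became -4.16 without the 5% deepest cells, -3.86 without the cell with the most UMIs of the genes in each class and -0.18 as a mean over cells. The value of -3.86 rests on 1 Dmkn UMI in Krt8/18-low cells. Thinned to 5000 UMIs, 0 UMIs of Calm4 remained at E13.5 and 0 of Sprr1b at E14.5, each set to 3 in the ratio. The log2 ratios of E15.5 to these stages, -1.46 for Calm4 and -0.16 for Sprr1b, are thus bounds made by that value. The E15.5 ratios turned without cells of 5 or more Krt1 and Krt10 UMIs, an alternative chosen after the data were seen, to -0.96 for Krtdap, -0.50 for Sbsn, -1.34 for Dmkn, -0.49 for Sprr1a, -1.26 for Sprr1b, -4.48 for Ly6d, -0.48 for Lypd3, -0.05 for Fabp5 and -0.83 for Lgals7, but not for Calm4, with 0 genes then 2-fold higher in Krt8/18-low cells (3.78% of all genes) and 3 lower (11.5%), against 8 and 0 with all cells. That alternative took out most Krt8/18-low but few Krt8/18-high cells with many of the genes detected. At E13.5, 1 gene in place of 2 was lower after thinning or without the Gabrp cells (Krtdap, as Lypd3 was at -0.66 without them), where Fabp5 turned from -0.43 to 0.22, and 1 was higher at a limit of 1.5-fold. With classes set at 10 UMIs, 1 gene, Calm4, was counted as lower at E15.5 than at E14.5. It had 0 UMIs in Krt8/18-high cells of E14.5, set to 3 in the ratio, so this call is a bound made by that value and not a decrease. The median rho of 0.33 was 0.48 as Pearson's r of log2 values, 0.25 in Krt8/18-high and 0.58 in Krt8/18-low cells alone, 0.29 thinned, 0.34 with 10% mitochondrial UMIs or under 5 collagen UMIs, and 0.32 with a minimum of 3000 UMIs, without the 5% deepest cells or without the top cells. The share of E15.5 Krt8/18-high cells with 5 or more genes was 72.0% unthinned and 26.5% thinned. The 22 and 23 cells of a class at E14.5 limit what that stage can show. Except where a value above shows otherwise, the cause of a change was not tested.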

Other observations

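At P0, Krtdap was higher in non-epithelial than in Krt8/18-high epithelial cells, at 55 CPM (46.2 to 65.0) against 6.56 (3.82 to 10.5). Its 138 UMIs lay in 38 of 273 cells (13.9%). These 38 cells, with a median depth of 10562 UMIs against 8565 in the other 235, had more of the fibroblast genes Pi16 (961 against 290 CPM) and Dpp4 (368 against 153 CPM), and Sbsn was at 152 CPM (117 to 195) against 37.1 (29.4 to 46.4). Dmkn was at 27 against 7.62 CPM, and Sprr1a, Sprr1b and Calm4 had 0 UMIs in the 38 cells. Of the mesenchyme markers compared, Col1a1 was at 36944 against 23808 CPM and Col3a1 at 40316 against 28556. Pdgfra was lower in the 38 cells, at 118 against 170 CPM, a ratio of 0.694 (0.503 to 0.941). Epcam (233 against 78.6 CPM) and Krt8 (285 against 100 CPM) were also higher in the 38 cells, and their part in the result was not tested. Pi16 and Dpp4 were chosen after their values had been seen.

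A cell of E15.5 with 5170 UMIs, which had 0 UMIs of the epithelial genes of the class rule and 0 of the collagens and was therefore counted as non-epithelial, had 202 UMIs of the 10 genes, 33 of Krt1 and 43 of Krt10.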
